A study of Oryza sativa with 36 samples.

Results

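Beta-expansins are a family of small secreted proteins that loosen the plant cell wall. Expansins let cellulose and matrix polymers slide past each other without cutting them, so that a cell under turgor can enlarge. Grasses carry an unusually large beta-expansin family, and its members include the group-1 pollen allergens, which are shed by grass pollen and soften maternal walls in the path of the pollen tube. The other branch of the family, often called vegetative, is known from growing leaves, roots, internodes and floral organs, and in deepwater rice transcripts of EXPB3, EXPB4, EXPB6 and EXPB11 are known to respond to gibberellin.

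The members described here were 7 probe sets chosen by gene name, EXPB2 (Os.2373.1.S1_at), EXPB3 (Os.6786.1.S1_a_at), EXPB4 (Os.12234.1.S1_s_at), EXPB6 (Os.2404.1.S1_at), EXPB8 (Os.2615.1.S1_at), EXPB9 (Os.12697.1.S1_at) and EXPB10 (Os.2405.1.S1_at), of 57194 rice probe sets on the array, with 1 probe set for each gene. EXPB2, EXPB3, EXPB4, EXPB6 and EXPB9 lie on chromosome 10 and EXPB8 and EXPB10 on chromosome 3, by the RefSeq annotation. EXPB6, EXPB2, EXPB3 and EXPB4 are consecutive protein-coding genes there, whereas EXPB9 stands apart from that run. EXPB8 is next to another beta-expansin gene, EXPB7. The EXPB4 probe set is of a type that can bind transcripts of several genes, so its values may hold signal from a close relative.

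The series has 12 groups of 3 arrays, 36 in all (Affymetrix, rice), and each array held tissue of an individual plant. All plants were of DK151, a drought-tolerant line bred from IR64 introgression parents, and no other line was analysed. Droughted plants had the solution drained slowly from their tubes until relative water content of the leaf was 65% to 75%. Drought took 3 days to show at tillering and panicle elongation and less at booting. Control plants were kept watered. Leaves were taken at tillering, panicle elongation and booting, roots at the earlier stages and young panicles at booting only, so that organ and stage were not fully crossed. Values are normalised hybridisation intensities, with a median of 59.8 and an interquartile range of 28.3 to 212 over all probe sets and arrays. They are comparable between arrays for 1 probe set but not between probe sets, and in whole organs fewer cells of a type and less RNA per cell cannot be told apart.

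Replicate arrays correlated with each other at a mean r of 0.944 to 0.992. In watered plants at tillering the labelled organs carried their markers. The summed intensity of 9 leaf probe sets, of 4 genes, was 55672 to 58820 in control leaves, against 3606 to 4203 in control roots. In droughted plants these sums were lower, with a leaf sum of 7739 to 8837 in droughted leaves at panicle elongation and a root sum of 7726 to 8169 in droughted roots at tillering. Control leaves had root sums of 5089, 6022 and 20535 at tillering and 7156, 11744 and 7320 at panicle elongation. Floral organ identity genes summed to 18422 to 20192 in droughted panicles and 19740 to 22612 in control panicles, and to at most 3239 in any leaf or root array. One control root array at panicle elongation, replicate 3, had a leaf marker sum of 11668, against 1713 and 4148 in the other two. One control leaf array at tillering, replicate 3, had a root marker sum of 20535, against 5089 and 6022 in the other two. Without the first, EXPB4 and EXPB8 no longer passed in roots at panicle elongation, as given below, and leaving out the second moved the leaf and root difference of EXPB4 at tillering past the threshold (-1.33, adjusted p = 0.00380, against -0.89 and 0.0884 with it).

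A change is said to have passed when its adjusted p was under 0.05 in limma (Benjamini-Hochberg over all rice probe sets), and to be called when it also reached the study's minimum of 5-fold. Log2 changes are drought minus control with their standard error, and each comparison had 3 arrays a group.

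Of the 7 genes, 4 fell with drought in nearly every organ and stage, 1 fell by a small amount in most of them, and 2 rose in the young panicle. EXPB3 fell furthest in leaves, EXPB6 fell in roots, in panicles and in leaves at tillering and panicle elongation, and EXPB9 rose in the droughted panicle, having been dim in every control group. Each gene is described in turn, first the adjacent chromosome 10 genes, then EXPB8, then EXPB9 and EXPB10.

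**Figure D1:**
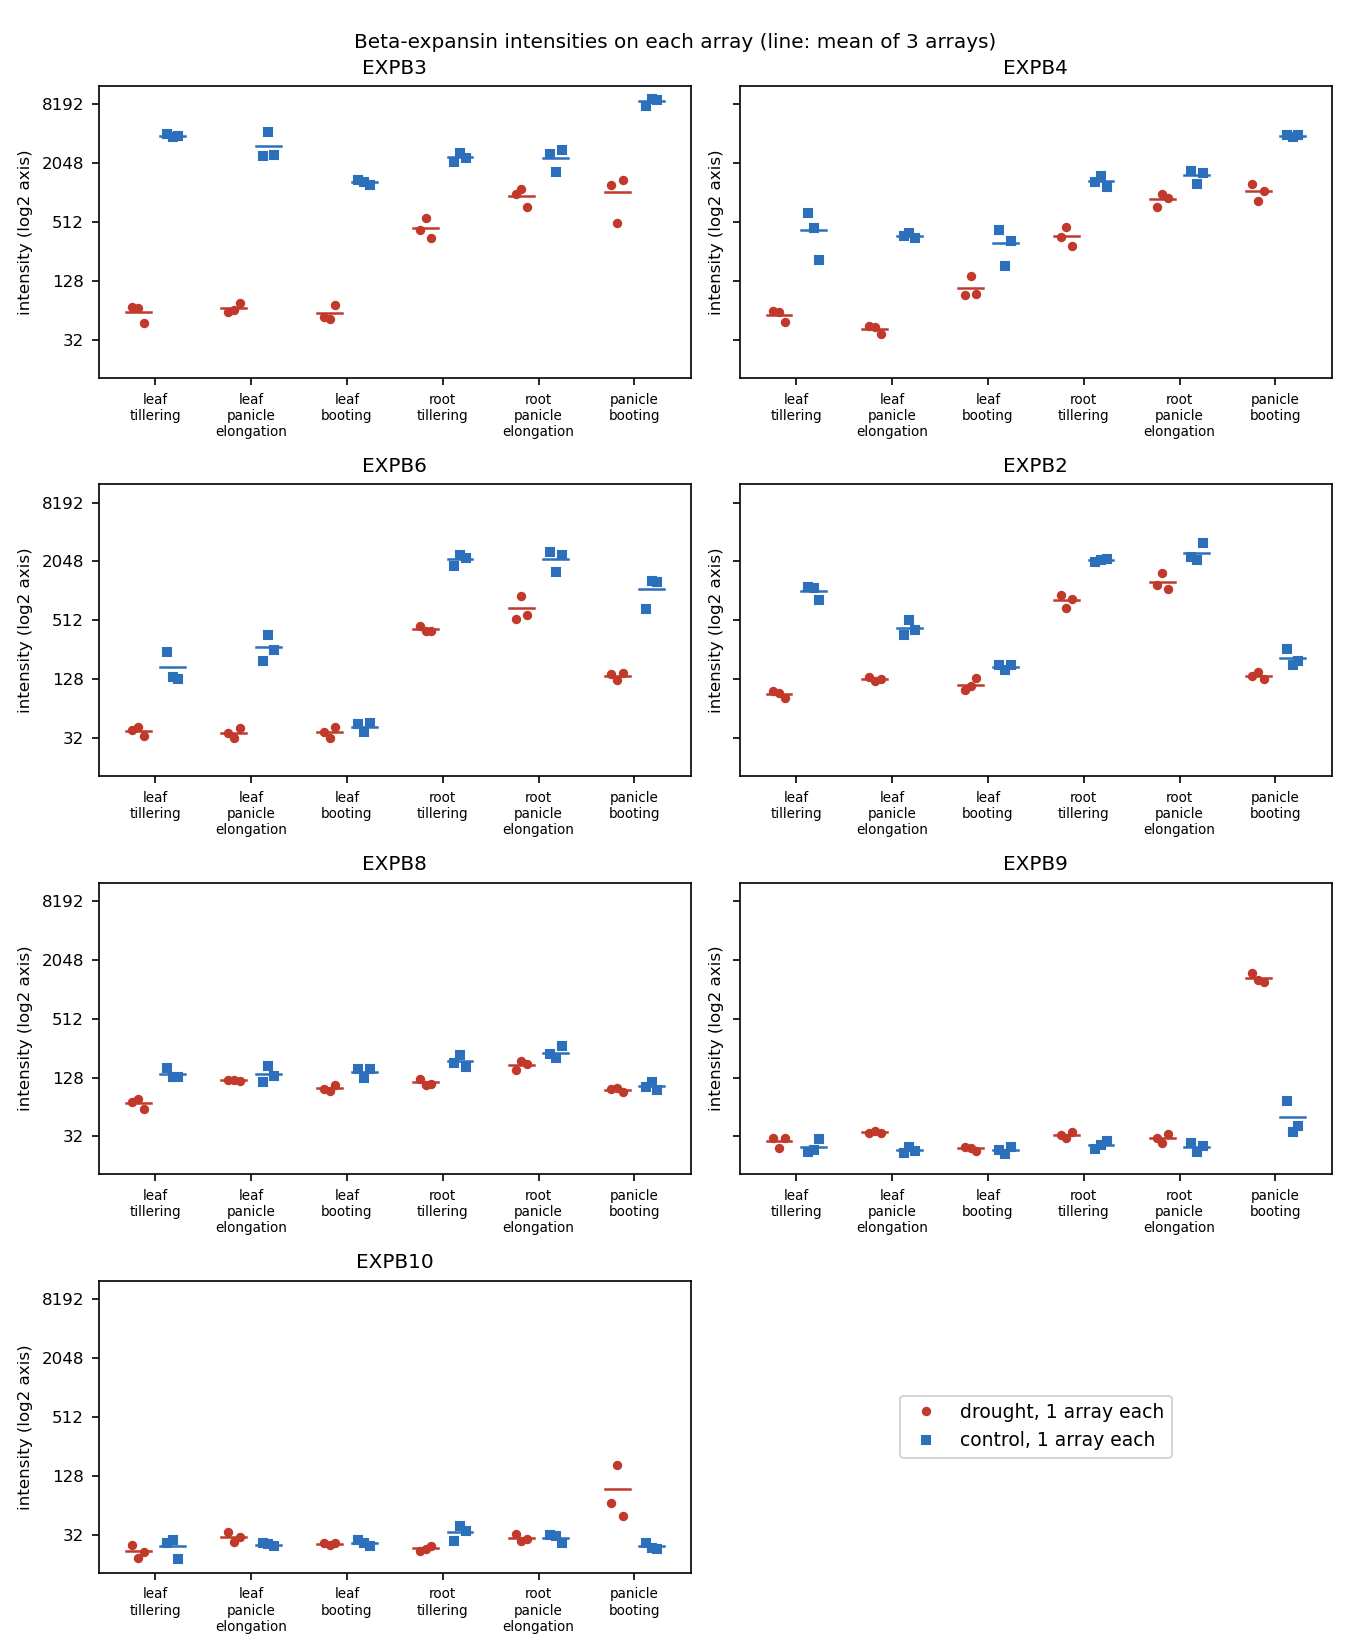
Intensity of each beta-expansin on every array (log2 axis) in 6 organ and stage combinations, with droughted arrays as circles to the left and control arrays as squares to the right, and the mean of 3 arrays as a line. EXPB3 stood at 47.6 to 75.6 in all droughted leaves, and EXPB9 was at 1202 to 1485 in droughted panicles and at most 74.5 elsewhere.

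EXPB3 encodes a beta-expansin of the vegetative branch. In leaves at tillering its intensity was 70.0, 68.1 and 47.6 in droughted plants, against 4093, 3758 and 3912 in control plants. In leaves at panicle elongation it was 61.4, 65.2 and 75.6 in droughted plants, against 2454, 4302 and 2482 in control plants. In leaves at booting it was 55.5, 52.9 and 72.3 in droughted plants, against 1395, 1307 and 1227 in control plants. The droughted leaves of the 3 stages lay on top of each other, close to the array median, and no control leaf came near them. The log2 changes were -6.01 ± 0.27 at tillering (adjusted p = 1.53e-15), -5.47 ± 0.27 at panicle elongation (adjusted p = 9.24e-16) and -4.45 ± 0.27 at booting (adjusted p = 3.89e-13), so that mean intensity in droughted leaves was 1.58%, 2.19% and 4.60% of that in control leaves.

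In roots EXPB3 fell less. At tillering it was 425, 568 and 353 in droughted roots, against 2089, 2605 and 2343 in control roots. At panicle elongation it was 984, 1128 and 731 in droughted roots, against 2539, 1666 and 2773 in control roots. The groups did not overlap at either stage, and the log2 changes were -2.41 ± 0.27 (adjusted p = 6.66e-08) and -1.28 ± 0.27 (adjusted p = 0.000585). In young panicles, where the gene was at its highest, it was 1237, 498 and 1393 in droughted plants, against 7912, 9229 and 9134 in control plants, a log2 change of -3.20 ± 0.27 (adjusted p = 2.48e-10). Droughted panicles therefore held EXPB3 at about the level of droughted roots at panicle elongation, and these neighbouring groups did not differ beyond their spread (adjusted p = 0.953).

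EXPB4 adjoins EXPB3 on the chromosome. In leaves at tillering its intensity was 63.1, 61.4 and 48.6 in droughted plants, against 628, 443 and 210 in control plants. At panicle elongation it was 44.0, 43.4 and 37.0 in droughted leaves, against 370, 396 and 355 in control leaves. At booting it was 91.8, 143 and 93.3 in droughted leaves, against 423, 182 and 331 in control leaves. Droughted leaves were the lower at all stages, by -2.76 ± 0.28, -3.17 ± 0.28 and -1.46 ± 0.28 on the log2 scale (adjusted p = 6.50e-09, 1.40e-10 and 0.000138), with the closest approach at booting. The booting change did not pass with the unpaired t-test of the methods after Benjamini-Hochberg adjustment (adjusted p = 0.0765).

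In roots at tillering EXPB4 was 365, 451 and 292 in droughted plants, against 1325, 1508 and 1181 in control plants. At panicle elongation it was 738, 1000.5 and 909 in droughted roots, against 1717, 1270 and 1637 in control roots. In panicles it was 1255, 846 and 1064 in droughted plants, against 4023, 3834 and 3935 in control plants. The log2 change was -1.92 ± 0.28 in the panicle (adjusted p = 3.51e-06) and -1.87 ± 0.28 in the root at tillering (adjusted p = 6.17e-06). The root at panicle elongation gave the smallest change, -0.80 ± 0.28 (adjusted p = 0.0321), and it no longer passed without any 1 of 4 arrays: control replicate 1 (adjusted p = 0.107) or 3 (0.0908), and drought replicate 1 (0.128) or 3 (0.0615).

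EXPB6 is the first gene of the run. It was a gene of roots and panicles more than of leaves. In roots at tillering its intensity was 447, 398 and 396 in droughted plants, against 1838, 2382 and 2236 in control plants. At panicle elongation it was 533, 918 and 586 in droughted roots, against 2550, 1597 and 2388 in control roots. In panicles it was 144, 126 and 147 in droughted plants, against 675, 1303 and 1260 in control plants. None of these pairs overlapped, and the log2 changes were -2.37 ± 0.25, -1.69 ± 0.25 and -2.90 ± 0.25 (adjusted p = 1.91e-08, 5.19e-06 and 3.22e-10).

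In leaves EXPB6 was low. At tillering it was 39.3, 42.1 and 33.5 in droughted leaves, against 243, 136 and 130 in control leaves, and at panicle elongation 36.6, 32.2 and 40.6 in droughted leaves, against 195, 367 and 258 in control leaves. Both changes passed, at -2.09 ± 0.25 (adjusted p = 1.15e-07) and -2.86 ± 0.25 (adjusted p = 1.24e-10). At booting the gene was already low in watered plants, with 36.7, 32.1 and 41.8 in droughted leaves, against 44.3, 36.8 and 45.3 in control leaves. These overlapped, and the log2 change of -0.19 ± 0.25 did not pass (adjusted p = 0.592).

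EXPB2 lies between EXPB6 and EXPB3. In leaves at tillering its intensity was 97.9, 93.3 and 82.7 in droughted plants, against 1130, 1095 and 834 in control plants. At panicle elongation it was 135, 122.7 and 130 in droughted leaves, against 364, 512 and 405 in control leaves. At booting it was 98.3, 109 and 132 in droughted leaves, against 178, 158 and 178 in control leaves. Droughted leaves changed little between stages while control leaves were lower at each later stage, and the log2 change was -3.47 ± 0.17 at tillering (adjusted p = 5.58e-15), -1.71 ± 0.17 at panicle elongation (adjusted p = 1.29e-09) and -0.61 ± 0.17 at booting (adjusted p = 0.00550).

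In roots EXPB2 was 939, 690 and 846 in droughted plants at tillering, against 2024, 2134 and 2154 in control plants. At panicle elongation it was 1177, 1574 and 1068 in droughted roots, against 2288, 2143 and 3151 in control roots. Both pairs were separate, with log2 changes of -1.36 ± 0.17 (adjusted p = 3.14e-07) and -0.99 ± 0.17 (adjusted p = 4.04e-05). In panicles it was 138, 152 and 128 in droughted plants, against 261, 179 and 197 in control plants. That difference of -0.59 ± 0.17 passed (adjusted p = 0.00834) but was lost without control panicle replicate 1 (-0.44, adjusted p = 0.0901).

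EXPB8 differed from the chromosome 10 run in the size of its changes. Its group means spanned 3.27-fold, between 70.6 in droughted leaves at tillering and 231 in control roots at panicle elongation. In leaves at tillering it was 72.7, 78.1 and 60.8 in droughted plants, against 159, 130 and 129 in control plants, a log2 change of -0.98 ± 0.14 (adjusted p = 1.73e-06). It also fell in leaves at booting (-0.55 ± 0.14, adjusted p = 0.00261) and in roots at tillering (-0.72 ± 0.14, adjusted p = 0.000209). The root at panicle elongation, with 152, 188 and 177 in droughted plants and 221, 203 and 268 in control plants, gave -0.42 ± 0.14 (adjusted p = 0.0252), which no longer passed without control replicate 3 (adjusted p = 0.162) or drought replicate 1 (adjusted p = 0.136). In leaves at panicle elongation (-0.19 ± 0.14, adjusted p = 0.276) and in panicles (-0.12 ± 0.14, adjusted p = 0.626) the arrays overlapped and the change did not pass.

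EXPB9 belongs with the pollen allergen branch of the family. In panicles its intensity was 1485, 1281 and 1202 in droughted plants, against 74.5, 35.7 and 41.2 in control plants. Droughted panicles put the gene at percentiles 94.0 to 95.4 of their arrays, and control panicles at percentiles 33.1 to 54.8. The log2 change was 4.78 ± 0.17 (adjusted p = 7.11e-18), and leaving out any 1 array kept it between 4.57 and 5.10. Elsewhere the probe set was near the lower quartile of the arrays, with group means of 23.1 to 35.2. In leaves at panicle elongation it was 34.6, 36.3 and 34.6 in droughted plants, against 21.7, 24.8 and 22.8 in control plants. That difference of 0.61 ± 0.17 passed (adjusted p = 0.00406) at intensities near the lower quartile of the arrays, 28.3, and was lost when low values were raised to the lower quartile (adjusted p = 0.0787).

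EXPB10, of the same branch but on chromosome 3, also rose in panicles. There it was 67.1, 164 and 50.2 in droughted plants, against 26.3, 23.4 and 23.0 in control plants. All droughted panicles were above all control panicles, but droughted replicate 2 stood well above the other two. The control panicles lay under the lower quartile of 28.3, so the size of the change is not well measured. The log2 change was 1.76 ± 0.24 (adjusted p = 1.32e-06), below the 5-fold minimum, leaving out any 1 array gave 1.26 to 2.12, and raising low values to the lower quartile gave 1.53. With the unpaired t-test of the methods and Benjamini-Hochberg adjustment it did not pass (adjusted p = 0.0830). In the other 10 groups its means were 21.6 to 33.8, and no drought change there passed. In roots at tillering it was 21.9 to 24.7 in droughted plants, wholly below the 27.4 to 39.3 of control plants (-0.53 ± 0.24, adjusted p = 0.113).

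EXPB1, a pollen allergen gene near EXPB10 on chromosome 3, is not one of the 7. It was named only through the study's list of genes up-regulated by drought in panicles alone, drawn from these same arrays. Its rise in panicles was thus fixed by that choice and is no separate support. In panicles it was 335, 762 and 327 in droughted plants, against 30.3, 36.5 and 33.9 in control plants, a log2 change of 3.71 ± 0.20 (adjusted p = 4.19e-14). The array with most EXPB10, droughted replicate 2, was also the one with most EXPB1, whereas EXPB9 was highest on droughted replicate 1. Over 9 anther and pollen genes, EXPB1 included, summed intensity was 14129 to 15369 in droughted panicles and 19035 to 23439 in control panicles. Droughted panicles were wholly below control panicles for 4 of the 9 (CYP703A3, C4, TDR and EAT1) and overlapped for 4 (GAMYB, RTS, C6 and PTC1). They were wholly above for 1, EXPB1, which was listed for that rise. Of all probe sets, 26.8% were wholly below and 21% wholly above. CYP703A3, a cytochrome P450 of pollen wall formation, averaged 53.5 in droughted panicles and 1884 in control panicles, whereas RTS, a tapetum gene, averaged 8597 in droughted panicles and 9052 in control panicles. The part of anther stage in the rise of EXPB9, EXPB10 and EXPB1 was not tested.

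**Figure D2:**
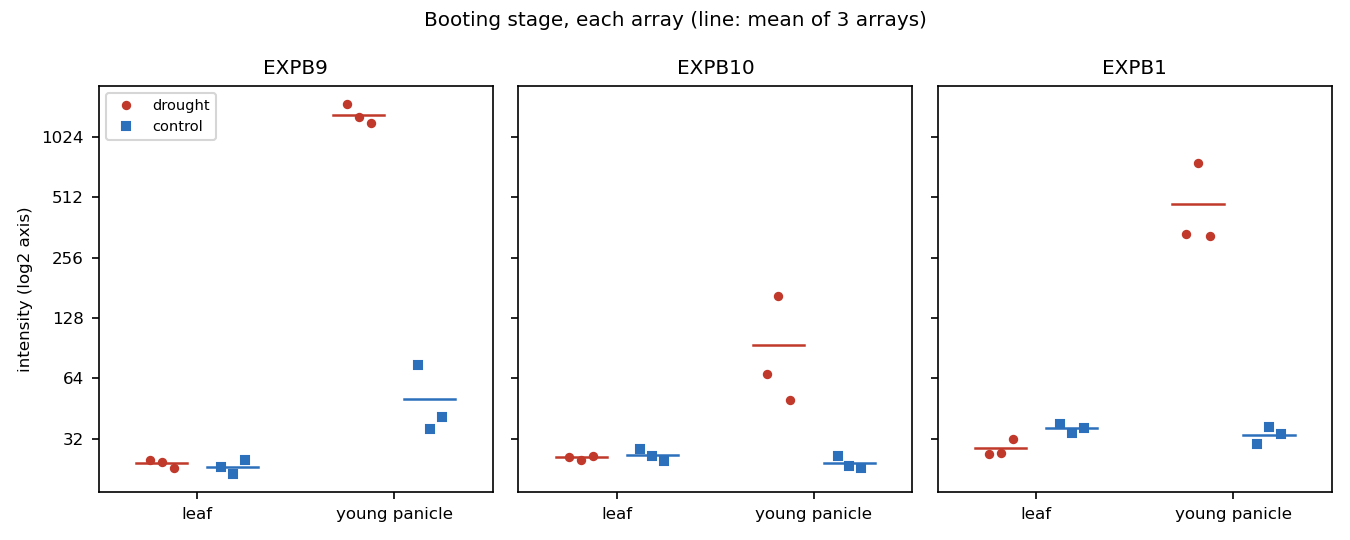
Intensity (log2 axis) of EXPB9, EXPB10 and EXPB1 in leaves and young panicles at booting, with droughted arrays as circles to the left, control arrays as squares to the right and the mean of 3 arrays as a line. Droughted panicles had 1202 to 1485 for EXPB9, 50.2 to 164 for EXPB10 and 327 to 762 for EXPB1, above every control panicle and every leaf array.

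Counted by comparison, leaves at tillering had 5 of 7 members lower and none higher, where 26.4% of all rice probe sets passed as lower and 16.9% as higher. Called members were 3 (EXPB2, EXPB3 and EXPB4), against 1.11% of probe sets called lower. At panicle elongation 4 members were lower and 1 higher (background 30% and 19%), and 3 were called lower (EXPB3, EXPB4 and EXPB6; background 3.56%). At booting 4 leaf members were lower (background 21.6%) and only EXPB3 was called (background 0.671%). EXPB3 was thus the 1 member called in leaves at all 3 stages. Droughted arrays lay wholly below control arrays for 5, 4 and 4 members in leaves at the successive stages (30.8%, 30.6% and 31.5% of all probe sets), 6 and 5 in roots (24.1% and 21.4%) and 4 in panicles (26.8%), and wholly above for 2 in leaves at panicle elongation (20.6%), 1 in roots at tillering (20.6%) and 2 in panicles (21%).

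Roots at tillering had 5 members lower (background 15.6%), of which EXPB3 and EXPB6 were called (background 1.37%), and both stood close to the minimum at 5.31-fold and 5.18-fold. Roots at panicle elongation again had 5 lower (background 15.1%), and limma called none (background 0.967%), nor did any member reach 5-fold at an unadjusted p under 0.05. With the unpaired t-test of the methods 4 members passed there unadjusted and 0 after adjustment. Panicles had 4 members lower (background 15.3%) and 2 higher (background 11.6%), with EXPB3 and EXPB6 called lower (background 0.997%) and EXPB9 called higher (background 0.649%). The panicle was the only organ sampled in which members passed in both directions with a call on each side.

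**Figure D3:**
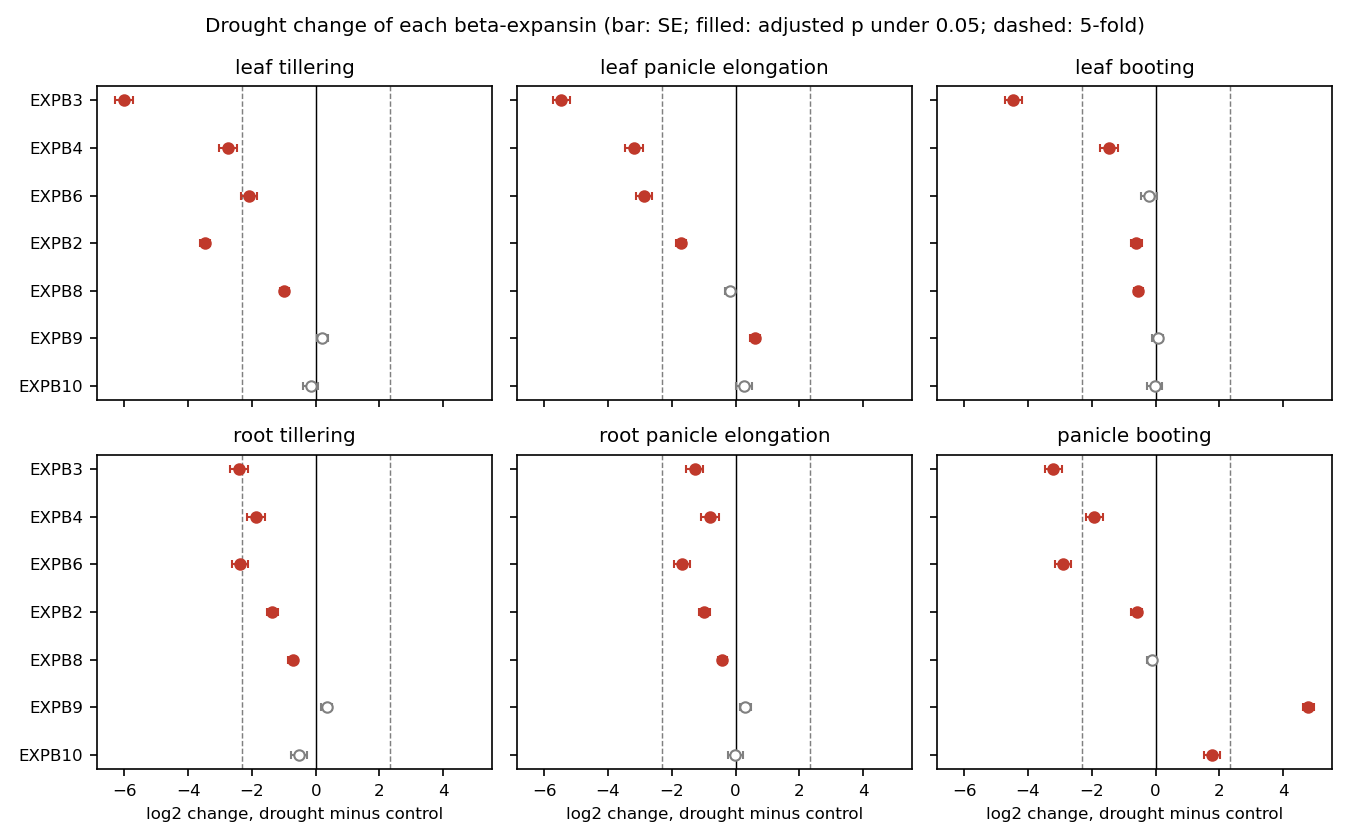
Log2 change, drought minus control, of the 7 beta-expansins in each organ and stage, with the standard error as a bar, filled points where adjusted p was under 0.05 and dashed lines at 5-fold. EXPB3 lay beyond the lower dashed line in all panels except roots at panicle elongation, and EXPB9 beyond the upper one in panicles alone.

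Whether the organs differed in their drought change was tested directly, as a difference of changes within a stage. EXPB3 fell further in leaf than in root, by -3.60 ± 0.39 at tillering (adjusted p = 4.02e-08) and -4.18 ± 0.39 at panicle elongation (adjusted p = 1.17e-09). EXPB2 did so at tillering (-2.11 ± 0.24, adjusted p = 9.73e-08), and EXPB4 at panicle elongation (-2.37 ± 0.40, adjusted p = 2.19e-05). EXPB2 also passed at panicle elongation, at -0.72. That was lost with quantile normalisation (adjusted p = 0.239) and with the arrays of the comparison fitted alone (adjusted p = 0.0747). It was lost too without control leaf replicate 2 (adjusted p = 0.0594), control root replicate 2 (0.0585) or droughted root replicate 2 (0.0748). Thus 2 members passed as lower at tillering and none as higher (background 18.7% and 14%), with 1 called lower (background 1.35%). At panicle elongation 4 passed as lower and none as higher (background 21.8% and 14.8%), with 2 called lower (background 3.35%). EXPB6 gave 0.28 ± 0.36 at tillering (adjusted p = 0.592) and -1.17 ± 0.36 at panicle elongation (adjusted p = 0.0105).

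At booting the panicle was set against the leaf. EXPB6 fell in the panicle and not detectably in the leaf, a difference of -2.71 ± 0.36 (adjusted p = 1.02e-06). EXPB9 and EXPB10 rose in the panicle alone, with differences of 4.72 ± 0.24 (adjusted p = 9.55e-14) and 1.79 ± 0.34 (adjusted p = 0.000191). EXPB3 went the other way and fell less in the panicle than in the leaf, by 1.25 ± 0.39 (adjusted p = 0.0156), which was lost without droughted panicle replicate 1 (adjusted p = 0.0560) or 3 (adjusted p = 0.0653). In all, 3 members passed as higher and 1 as lower (background 13.5% and 13.7%), of which EXPB9 and EXPB6 were called (background 0.715% and 1.79%).

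**Figure D4:**
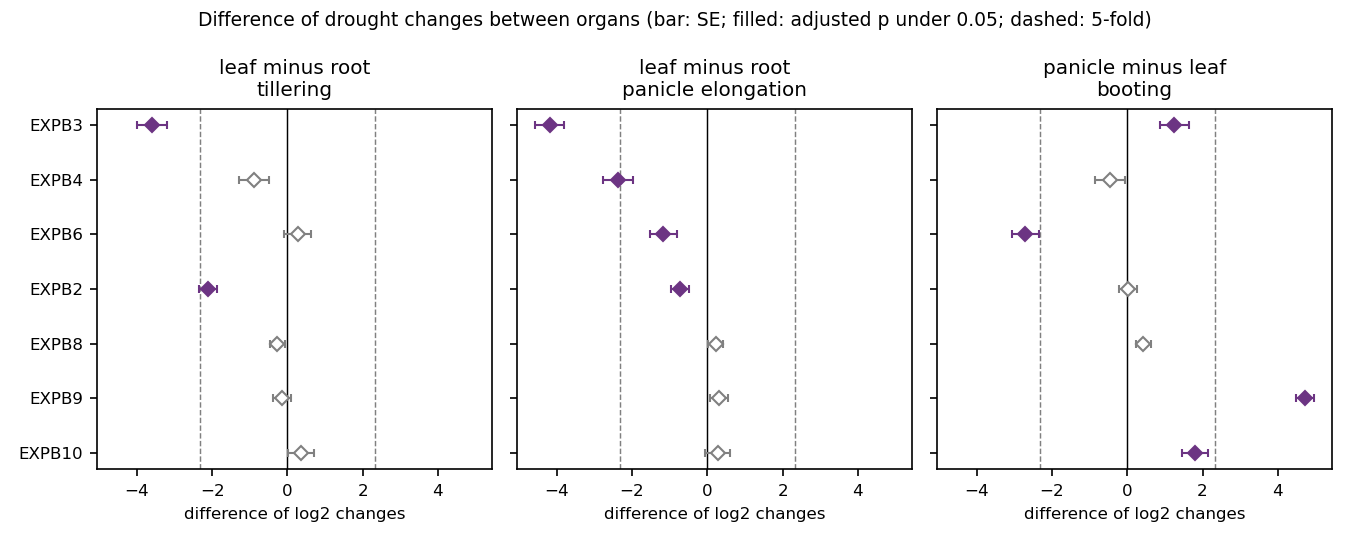
Difference between 2 organs in the log2 drought change of each beta-expansin, leaf minus root at tillering and panicle elongation and panicle minus leaf at booting, with the standard error as a bar, filled points where adjusted p was under 0.05 and dashed lines at 5-fold. EXPB3 lay at -3.60 and -4.18 in the leaf and root panels, and EXPB9 at 4.72 in the panicle and leaf panel.

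Between stages, the leaf change of EXPB2 was smaller at panicle elongation than at tillering (1.76 ± 0.24, adjusted p = 1.40e-06) and smaller again at booting than at panicle elongation (1.11 ± 0.24, adjusted p = 0.000867). EXPB8 passed in the first of these (0.79 ± 0.20, adjusted p = 0.00226), and EXPB6 (2.67 ± 0.36, adjusted p = 2.15e-06) and EXPB4 (1.71 ± 0.40, adjusted p = 0.00168) in the second. That made 2 members and 3 members higher (background 15.8% and 15.6%), with only EXPB6 called (background 1.6%). Drought took 2 days to show at booting and 3 at the earlier stages. Stage and length of stress therefore cannot be told apart in the comparison with booting. Between the root stages no member passed in limma, where 4.25% of probe sets passed as higher, and 2 had an unadjusted p under 0.05. For EXPB3 that difference was 1.12 ± 0.39 (adjusted p = 0.0805).

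Watered plants gave the levels from which these changes were measured. EXPB6 was lower in leaf than in root, with a log2 difference, leaf minus root, of -3.72 ± 0.25 at tillering (adjusted p = 2.85e-13) and -3.02 ± 0.25 at panicle elongation (adjusted p = 2.83e-11). EXPB2 was lower in leaf too, at -1.06 ± 0.17 and -2.56 ± 0.17 (adjusted p = 5.24e-06 and 1.68e-13), as was EXPB4, at -1.78 ± 0.28 and -2.03 ± 0.28 (adjusted p = 4.24e-06 and 5.05e-07). EXPB3 alone was higher in leaf at tillering (0.75 ± 0.27, adjusted p = 0.0235), which no longer passed without control leaf replicate 1 (adjusted p = 0.0618) or control root replicate 1 (adjusted p = 0.0795). At tillering 4 members were lower in leaf and 1 higher (background 24.4% and 27.7%) and EXPB6 was called (background 3.8%), and at panicle elongation 4 were lower (background 22.2%) and EXPB2 and EXPB6 were called (background 4.14%).

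The young panicle of watered plants was above the leaf for EXPB6 (4.62 ± 0.25, adjusted p = 2.10e-15), EXPB4 (3.74 ± 0.28, adjusted p = 2.65e-12) and EXPB3 (2.74 ± 0.27, adjusted p = 1.11e-09), all called. With EXPB9 (1.05 ± 0.17, adjusted p = 6.63e-06) that was 4 higher and, with EXPB8, 1 lower (background 23% and 27.6%), and 3 called higher (background 5.21%). In watered leaves EXPB2 fell between tillering and panicle elongation (-1.26 ± 0.17, adjusted p = 8.49e-06), the 1 member to do so (background 3.97%), and with the unpaired t-test of the methods this did not pass after adjustment (adjusted p = 0.165). EXPB2, EXPB3 and EXPB6 were lower at booting than at panicle elongation (background 11.4%), and EXPB6 was called at -2.65 ± 0.25 (adjusted p = 8.49e-09; background 0.963%). In watered roots no member passed between the stages in limma (background 1.5% higher and 0.462% lower), 1 had an unadjusted p under 0.05, and the unpaired t-test gave 0.

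In order of level over the 12 groups, EXPB3 was highest in control panicles and EXPB4 likewise, each above the next group (adjusted p = 0.000785 and 0.000212). EXPB2 and EXPB6 were highest in the control roots of the 2 stages, which did not differ from each other (adjusted p = 0.587 and 0.999). At the low end, the 3 droughted leaf groups of EXPB3 did not differ between neighbours (adjusted p = 0.717 and 0.957). The highest group mean was 145-fold the lowest for EXPB3, 94.7-fold for EXPB4, 59.7-fold for EXPB6, 27.7-fold for EXPB2 and 3.27-fold for EXPB8. No such fold is given for EXPB9 and EXPB10, whose lowest group means of 23.1 and 21.6 lay under the lower quartile of the arrays.

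Over the 12 group means the members fell into patterns that are given as a description, since the groups share organs and treatments. EXPB9 and EXPB10 had a Pearson r of 0.90, and EXPB1, listed for its rise in droughted panicles, had 0.96 with EXPB9. Both values rest on droughted panicles, the 1 group in which all these genes were high. Over the other 11 groups the values were -0.13 and -0.17. EXPB3 and EXPB4 had 0.86, EXPB4 and EXPB6 0.85, EXPB2 and EXPB8 0.84, and EXPB2 and EXPB6 0.82. Neighbours on the chromosome were not always the most alike, for EXPB2 and EXPB3, which adjoin, had 0.56. EXPB9 had -0.30 with EXPB2 and 0.04 with EXPB3.

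Likeness to other genes could be searched only over the 3099 probe sets with a symbol. Among these EXP2, an alpha-expansin, was the closest to EXPB3 (r = 0.96 over 12 group means). AtbHLH004 came next at 0.95, then the xyloglucan xylosyltransferase XXT1 at 0.93. EXPB6 was closest to IAA23, an auxin response repressor (0.98), to the lignin pathway gene Os4CL1 (0.97) and to the manganese transporter NRAMP5 (0.96). EXPB2 was closest to GT4, CYP99A3 and the iron transporter IRT1 (0.94 each), and EXPB4 to the protein kinase CPK3 (0.96), the phosphatase OsPP2C28 (0.95) and the kinesin KIN14O (0.94). EXPB8 was closest to OsCASP1 (0.94), whose family builds the Casparian strip. EXPB9 and EXPB10 both had the beta-glucosidase BGLU38 first, at 0.99 and 0.92, which became 0.80 and 0.25 without droughted panicles.

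The other beta-expansin probe sets with a name were 6, for EXPB1, EXPB7, EXPB11, EXPB17 (2 probe sets) and EXPB18. EXPB11 in panicles was 114, 85.5 and 118 in droughted plants, against 1327, 1732 and 1729 in control plants, a log2 change of -3.92 ± 0.27 (adjusted p = 2.47e-12). It also fell in leaves at panicle elongation (-2.65 ± 0.27, adjusted p = 1.75e-09). Smaller falls passed in leaves at tillering (-1.62) and booting (-0.91) and in roots at panicle elongation (-1.20). EXPB7, the neighbour of EXPB8, fell most in roots at tillering (-3.15 ± 0.37 on the log2 scale, adjusted p = 1.02e-07). It also passed as lower in leaves at tillering (-1.59), roots at panicle elongation (-1.39) and panicles (-1.17). EXPB18 fell in roots at tillering (-1.56 ± 0.24, adjusted p = 1.04e-05) and at panicle elongation (-1.17 ± 0.24, adjusted p = 0.000436). Its fall in leaves at panicle elongation (-0.77, adjusted p = 0.00908) was at group means of 7.99 and 13.4, under the lower quartile of the arrays. EXPB17 fell in panicles on 1 of its 2 probe sets, with -2.01 ± 0.14 (adjusted p = 5.48e-12), and averaged 115 in droughted panicles and 462 in control panicles there. That probe set also passed as lower in roots, with -1.20 at tillering and -0.86 at panicle elongation. The other had group means of 23.2 to 31.4 throughout, near the lower quartile of the arrays, where a fall is poorly measured. EXPB7 and EXPB11 each had r = 0.94 with EXPB6 over the 12 group means.

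Other wall and growth genes were counted from lists of gene names. Lists of cellulose synthase-like genes, endoglucanases, laccases and brittle culm genes were counted too and are given for 1 comparison only. In leaves at panicle elongation they had 7 of 24, 3 of 12, 1 of 9 and 3 of 6 probe sets lower (background 30%). There 6, 2, 1 and 1 were higher (background 19%). None of the 13 cellulose synthase probe sets was higher in any drought comparison (background 11.6% to 19%). In leaves 12, 10 and 5 were lower at the 3 stages (background 26.4%, 30% and 21.6%). In roots 9 and 11 were lower (background 15.6% and 15.1%), and in panicles 11 (background 15.3%). Their median log2 change was -1.84 in leaves at tillering, against -0.08 over all probe sets. CESA3, of primary wall cellulose synthesis, changed by -3.52 ± 0.27 there (adjusted p = 3.09e-11). Of 16 alpha-expansin probe sets, 3, 5 and 3 were lower and 2, 4 and 2 higher in leaves, where 26.4%, 30% and 21.6% of all probe sets were lower and 16.9%, 19% and 15.3% higher, so that these counts were near the background. In roots 8 and 7 were lower and 1 and 0 higher (background 15.6% and 15.1% lower, 12% and 12.5% higher), and in panicles 5 were lower and 1 higher (background 15.3% and 11.6%). EXP2 had the largest called fall among them in leaves (-5.06 ± 0.29 at tillering, adjusted p = 1.25e-13) and in panicles (-3.75 ± 0.29, adjusted p = 3.47e-11).

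The expansin-like genes, relatives without shown wall-loosening activity, had 5 probe sets. In leaves 2, 3 and 4 were higher and 2, 1 and 0 lower, in roots 2 and 3 were higher and 1 and 1 lower, and in panicles 3 were higher and 2 lower, with the same backgrounds. Their median log2 change was -0.61 in leaves at tillering and 0.56 to 0.92 in the other comparisons. EXLA2 rose by 3.83 ± 0.29 in leaves at panicle elongation (adjusted p = 6.70e-12), and EXLA4 changed there by -2.93 ± 0.29 (adjusted p = 1.59e-09). Of 18 tubulin probe sets, 9, 12 and 8 were lower in leaves, 14 and 12 in roots and 11 in panicles, and 1 was higher in leaves at tillering and 1 at panicle elongation, again with those backgrounds. TUB8 changed in panicles by -2.79 ± 0.24 (adjusted p = 2.98e-10). Organ markers moved with drought too. The leaf marker sum was 7739 to 8837 in droughted leaves and 57050 to 58457 in control leaves at panicle elongation. Of its 9 probe sets, of 4 genes, 7 were wholly lower (background 30.6%). The root marker sum was 7726 to 8169 in droughted roots and 33511 to 37131 in control roots at tillering. Of its 10 probe sets 9 were wholly lower (background 24.1%). The part of these marker changes in the falls of the beta-expansins in those organs was not tested.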

How the data were processed

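Total RNA of 36 samples was hybridised to Affymetrix rice genome arrays. The authors scanned the arrays with the Affymetrix operating software and normalised them in dChip to an invariant set, and the deposited table gives 1 intensity for each probe set on each array. The dChip version and its use of mismatch probes are not given in the sources used here. Groups came from the sample labels. Of 57381 rows, 123 control and 64 reporter probe sets were left out. Intensities under 1 (885 values) were set to 1 and log2 values were fitted in limma 3.58.1 (R 4.3.3) with 12 group means in 1 model, 24 residual degrees of freedom and no replicate block. Benjamini-Hochberg adjustment ran over 57194 probe sets per contrast. The code was tested on simulated data. The number of arrays limits the precision.

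Genes were named from platform identifiers updated through RefSeq names: 22436 probe sets had 1 gene identifier, 95 several and 34663 none. EXPB1 was named from the study's list of genes up-regulated by drought in panicles alone. Named were all 7 members, every other named beta-expansin, for each member the 3 named genes most like it over group means, and in each wall list and drought comparison the called probe sets with the largest rise and fall; a subset is printed. Members and lists were chosen with earlier results of these data known. Name lists of fasciclin-like proteins and pectin methylesterases matched nothing, and that of xyloglucan transglucosylases 1 gene, so these were left out. Alternatives were the methods' unpaired t-test, fold minimum, floor, dim-probe filter, normalisation, arrays fitted, variance trend, replicate block and leaving out each array. Replicate numbers were not shown to pair plants: the deviations of all 3 same-numbered pairs correlated above 0.1 in none of the 6 drought comparisons and in 1 of 12 pairs of organs or stages, control leaves and control roots at tillering (0.164 to 0.196).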

Additional observations from a re-analysis of the deposited data

Results flagged for a closer look

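The drought change differed between organs or stages, by a test of the difference itself and by 5-fold or more, in 6 cases. EXPB3 differed between leaf and root by -3.60 at tillering and -4.18 at panicle elongation on the log2 scale, and EXPB4 by -2.37 at panicle elongation. EXPB6 differed by -2.71 and EXPB9 by 4.72 between panicle and leaf at booting. EXPB6 also differed by 2.67 between leaves at booting and leaves at panicle elongation, stages at which the length of stress differed too. For EXPB6 both differences involved the leaf at booting, where control plants had 36.8 to 45.3, against a lower quartile of 28.3 over all probe sets.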

How the results depend on the processing

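Of 126 values for single genes, 63 passed, and over 1051 alternatives of those 63 none changed direction, 1013 stayed past the threshold and 38 did not. With no fold minimum, the drought comparisons had 5, 5 and 4 members passing in leaves (by stage), 5 and 5 in roots, and 6 in panicles. Of all probe sets, 15.1% to 30% passed there as lower and 11.6% to 19% as higher. In control plants 4 and 4 members passed as lower for leaf minus root, and 1 as higher at tillering. For panicle minus leaf 4 passed as higher and 1 as lower, and between successive leaf stages 1 and 3 passed as lower. The background in each direction was 22.2% to 27.7% between organs and 2.98% to 11.4% between leaf stages, so that the counts of 1 between organs were not above it. In differences of drought changes 2 and 4 members passed as lower for leaf minus root. For panicle minus leaf 3 passed as higher and 1 as lower, and between leaf stages 2 and 3 passed as higher. The background there was 9.57% to 21.8% in each direction, so that the counts of 1 and 2 were near it. With a 2-fold minimum, 10.2% to 22.3% of all probe sets passed in the drought comparisons, in either direction. Member counts that moved by over 1.5 times became 2 for booting leaves, 4 and 2 for the root stages, and 5 for panicles. For control leaf minus root at tillering the count became 3 (background 23%). Between control leaf stages the counts became 1 and 3 (background 2.91% and 7.66%). Differences of drought changes gave 2 for leaf minus root at tillering (background 16.8%) and 4 for panicle minus leaf (background 14.6%). Between leaf stages these differences gave 1 and 3 (background 19.4% and 14.3%). The counts of 1 and 2 among the differences were thus near the background. The unpaired t-test was run on the drought and the control comparisons, not on the differences of drought changes. With it adjusted, the control leaf had 0 called between panicle elongation and booting, and 15 passed changes of those comparisons were lost. These were all 5 in roots at panicle elongation, EXPB4 in leaves at booting, EXPB2 and EXPB10 in panicles, EXPB8 in both control leaf and root differences, EXPB9 between control panicle and control leaf, and the 4 between control leaf stages. Quantile normalisation, median centring and leaving out probe sets of several genes each gave 1 for the leaf and root difference at panicle elongation, and median centring gave 1 for roots at tillering. The filter on dim probe sets removed EXPB9 and EXPB10, and so gave 1 for the panicle and leaf difference and 2, not 3, called in panicles. Leaving out probe sets of several genes removed EXPB4, and gave 2, not 3, in leaves at tillering, in leaves at panicle elongation and for control panicle minus leaf. The cause of these shifts was not tested, beyond the probe sets that a filter removed.

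Leaving out 1 array gave 1 to 2 called members in roots at tillering and 1 to 2 in the leaf and root difference at panicle elongation, and left the other 16 counts as they were. The lower count came without control replicate 2 or drought replicate 3 in roots at tillering, and without droughted leaf replicate 3, control root replicate 2 or droughted root replicate 2 in the difference. With the replicate number as a block, the counts of called members were 3, 3 and 1 in leaves, 2 and 0 in roots and 3 in panicles, and no member's change moved across the threshold. The same-numbered arrays correlated at 0.083 to 0.308 in leaves at tillering and 0.0902 to 0.422 in roots at tillering, and lower elsewhere. The median change of all probe sets in leaves at tillering was -0.08, against 0.07 after median centring, and in leaves at booting -0.12, against -0.01. Low intensities limit EXPB9 outside the panicle and EXPB10 in every group but droughted panicles, so that a fall there is poorly measured. EXPB10 in roots at tillering (-0.53) passed with the arrays of the comparison fitted alone (adjusted p = 0.0359), but not with all arrays in 1 model (adjusted p = 0.113).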
